A study of Homo sapiens with 4 samples.

Results

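The RNAs described here are 10 abundant structural noncoding RNAs of the cell: the 7SK RNA (RN7SK), the signal recognition particle RNAs (RN7SL1 and RN7SL2), the RNA subunits of RNase P (RPPH1), RNase MRP (RMRP) and telomerase (TERC), 3 vault RNAs (VTRNA1-1, VTRNA1-2 and VTRNA1-3) and the Y RNA RNY1. They were chosen by symbol from 44591 annotated rows, with their counts in these same libraries already known, so their levels are given as a description and without a test. All 10 symbols were found, and 7 of them had a mean of at least 1 CPM (the count of a gene per 1000000 counts of its library).

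The data were RNA-sequencing counts from 4 replicate libraries of untreated HaCaT cells, an immortalized line of human skin keratinocytes, which the labels describe as grown in medium with 12% serum. All 4 libraries belonged to 1 condition, so the only spread available was that between replicates, which the study calls biological repeats and the labels do not tie to separate cultures. The step by which RNA was selected for each library is not given in the sources used here and may differ between them.

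Most of these RNAs act as the scaffold or catalytic core of a particle with proteins rather than as messages. RNA polymerase III makes all of them except TERC, which is made by RNA polymerase II. Their mature forms lack the poly(A) tail that most messenger RNAs carry.

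RN7SL1 and RN7SL2 are near-identical copies, which bears on how reads can be assigned to them. Their sequences were compared as given in GENCODE release 29 (GRCh38). Over 300 aligned columns 295 were identical (98.3%), with 4 mismatches and 1 gap, and the longest identical stretch ran over 205 bases. A read that falls within that stretch carries no letter that tells one RNA from the other.

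The vault RNAs and RNY1 are the shortest of the set and are shown because they had almost no reads outside 1 library. The vault RNA genes lie on chromosome 5 on the plus strand of GRCh38, at 140711275 to 140711373 for VTRNA1-1, at 140718925 to 140719013 for VTRNA1-2 and at 140726158 to 140726246 for VTRNA1-3. Their sequences, from the same GENCODE release, are written as DNA from 5′ to 3′, and capitals mark the letters GTTCGA, searched on the RNA strand:
VTRNA1-1: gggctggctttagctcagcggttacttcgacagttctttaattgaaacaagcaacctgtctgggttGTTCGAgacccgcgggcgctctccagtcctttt
VTRNA1-2: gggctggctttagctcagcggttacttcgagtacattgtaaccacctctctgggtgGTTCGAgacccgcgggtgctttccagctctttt
VTRNA1-3: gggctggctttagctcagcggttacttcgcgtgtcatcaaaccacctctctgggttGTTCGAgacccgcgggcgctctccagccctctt
These letters form the core of the B box, an internal promoter element of many RNA polymerase III genes. They occurred once in each of the 3 vault RNAs and in 31 of 4410 GENCODE transcripts of 80 to 120 bases (0.703%). Pairwise identity among the vault RNAs was 78.8% for VTRNA1-1 with VTRNA1-2, 79.8% for VTRNA1-1 with VTRNA1-3 and 86.5% for VTRNA1-2 with VTRNA1-3. RNY1 lies on chromosome 7 from 148987136 to 148987248 on the minus strand of GRCh38, and capitals mark the run of T at its 3′ end:
RNY1: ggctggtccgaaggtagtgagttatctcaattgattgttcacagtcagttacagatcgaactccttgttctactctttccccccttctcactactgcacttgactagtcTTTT

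The libraries held 73082279, 17056035, 19745170 and 19083836 counts for replicates 1 to 4. The labelled cell type was met by its markers: all 7 keratinocyte markers passed a mean of 1 CPM, and their summed level was 8470.1 to 10583 CPM. Summed fibroblast markers stood at 3.54 to 19.96 CPM, melanocyte markers at 1.37 to 2.81 CPM and blood cell markers at 0 to 0.219 CPM, with TYR at 0 counts in every library. Replicate 1 also differed in other RNA classes: rows annotated as ribosomal RNA had 0 counts there and 1.03% to 1.22% of counts in replicates 2 to 4, and protein-coding rows made up 76.1% there and 95.3% to 96.4% in the others. The part these differences have in the results below was not tested, and a difference in RNA selection cannot be told apart from the difference between replicates.

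The 10 RNAs took up 21.0% of all counts in replicate 1 and well under 1% in each other library. Their summed count was 15353611 in replicate 1 and 37487, 42345 and 6551 in replicates 2 to 4. As a share of counts this was 21.0%, 0.220% (95% exact Clopper-Pearson interval 0.218% to 0.222%), 0.214% (0.212% to 0.217%) and 0.0343% (0.0335% to 0.0352%). These intervals and those below reflect counting error alone and leave out the spread between replicates. They treat each read as independent, and would be too narrow where reads stem from the same molecule. Replicates 2 and 3 lay close together, replicate 4 was 6.40 times below replicate 2, and replicate 1 was 95.6 times above replicate 2. The mean of 53693 ± 104266 CPM (SD, n = 4) had an SD larger than itself, and without replicate 1 the mean was 1562 ± 1056 CPM (SD, n = 3).

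Per length the share was larger, because these RNAs are short. On the TPM scale, which divides each count by gene length and scales every library to the same sum of 1000000, computed from the deposited counts and gene lengths, they made up 63.9% of replicate 1 and 1.67%, 1.34% and 0.273% of replicates 2 to 4.

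**Figure D1:**
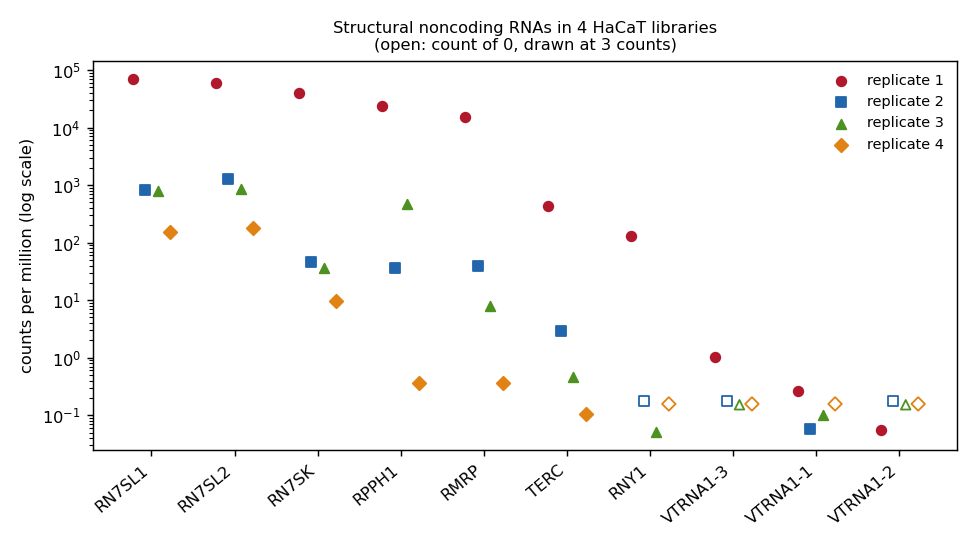
Level of each RNA in each of the 4 libraries, in CPM on a log axis; open symbols stand for 0 counts and are drawn at the level of 3 counts in that library. Replicate 1 holds the highest value of all 10 RNAs, and RN7SL1 and RN7SL2 are the only 2 above 100 CPM in all 4 libraries.

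The signal recognition particle binds the signal peptide of a growing secretory protein and brings its ribosome to the endoplasmic reticulum, and the 7SL RNA is its backbone. RN7SL1 (chromosome 14, 50053298 to 50053596, plus strand, hg19) had 70957 CPM in replicate 1 and 818, 775 and 151 in replicates 2 to 4. RN7SL2 (chromosome 14, 50329269 to 50329567, minus strand, hg19) had 59909 CPM, 1254 CPM, 860.3 CPM and 182 CPM in the same order. These were the most abundant of the 10 RNAs in every library, and in replicate 1 they ranked 1 and 2 of all rows by CPM. Replicate 1 exceeded the others by 86.8, 91.6 and 469.9 times for RN7SL1, and by 47.8, 69.6 and 329.8 times for RN7SL2. The pair moved together, yet not in a fixed ratio. RN7SL2 stood at 0.844 times RN7SL1 in replicate 1 (95% interval 0.843 to 0.845), at 1.53 times in replicate 2 (1.502 to 1.57), at 1.11 times in replicate 3 (1.09 to 1.14) and at 1.20 times in replicate 4 (1.14 to 1.26). RN7SL1 was thus the higher of the pair in replicate 1 and the lower in the others. How reads from the 205 shared bases were divided between the genes is not given in the sources used here, so the ratio is uncertain as a measure of either RNA. Added together, both rows held 9564025, 35343, 32285 and 6349 counts.

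7SK RNA holds the elongation factor P-TEFb, a kinase of RNA polymerase II, in an inactive complex. RN7SK (chromosome 6, 52860418 to 52860749, plus strand, hg19) had 39148 CPM in replicate 1 and 46.3, 35.9 and 9.75 in replicates 2 to 4. Replicate 1 was 845 times (95% interval 788 to 907), 1092 times (1014 to 1177) and 4017 times (3479 to 4663) above replicates 2, 3 and 4. The other libraries differed far less from each other, with replicates 2 and 3 at 4.75 and 3.68 times replicate 4. Per length, RN7SL1 exceeded RN7SK by 2.01 times in replicate 1 and by 19.6, 24.0 and 17.2 times in replicates 2 to 4, so the gap between the 7SL and 7SK RNAs was narrow in replicate 1 and wide elsewhere.

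RNase P cuts the 5′ leader from transfer RNA precursors, and RNase MRP, which shares most of its proteins, takes part in cutting the precursor of ribosomal RNA. RPPH1 (chromosome 14, 20811230 to 20811570, minus strand, hg19) had 23992 CPM in replicate 1 and 36.6, 465 and 0.367 in replicates 2 to 4. RMRP (chromosome 9, 35657748 to 35658015, minus strand, hg19) had 15510.2 CPM, 39.8 CPM, 8.05 CPM and 0.367 CPM. Both RNAs rested on 7 counts in replicate 4, against 1753394 and 1133524 in replicate 1. RPPH1 was the member with the widest spread among replicates 2 to 4: replicate 3 was 1268 times replicate 4 (95% interval 615 to 3154), and replicate 2 was 99.9 times replicate 4 (48.2 to 249.5). For RMRP replicates 2 and 3 changed places and replicate 4 was again the lowest. Replicate 2 was at 108 times (52.3 to 271) and replicate 3 at 21.95 times replicate 4 (10.4 to 55.5). The ratio of RPPH1 to RMRP per length was 1.22 in replicate 1 (1.21 to 1.22), 0.724 in replicate 2 (0.649 to 0.809), 45.4 in replicate 3 (38.8 to 53.4) and 0.786 in replicate 4 (0.235 to 2.63). The interval of replicate 4 covers the values of replicates 1 and 2, and replicate 3 lies apart from all of them.

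Telomerase copies the telomere repeat from a template within TERC. TERC (chromosome 3, 169482398 to 169482848, minus strand, hg19) had 437 CPM in replicate 1 and 2.93, 0.456 and 0.105 in replicates 2 to 4, from 31925, 50, 9 and 2 counts. Replicate 1 was 149 times replicate 2 (95% interval 113 to 201), 958 times replicate 3 (505 to 2096) and 4168 times replicate 4 (1154 to 34420.1). With 9 and 2 counts, replicates 3 and 4 could not be told apart, as their ratio of 4.35 had an interval of 0.900 to 41.4. TERC was scarcer than RN7SK per length in all libraries, at 0.00821 times in replicate 1, 0.0466 times in replicate 2 (0.0343 to 0.0620), 0.00936 times in replicate 3 (0.00426 to 0.0179) and 0.00792 times in replicate 4 (0.000952 to 0.0290).

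**Figure D2:**
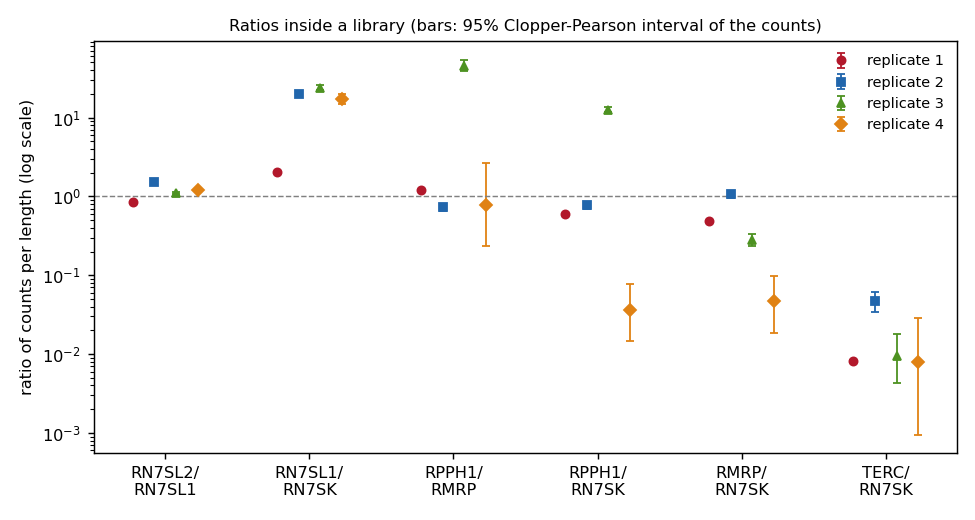
Ratio of level per length within each library for pairs of these RNAs, on a log axis, with 95% intervals from the counts as bars. RPPH1 to RMRP reaches 45.4 in replicate 3 against 0.724 to 1.22 in the others, while RN7SL2 to RN7SL1 stays between 0.844 and 1.53.

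Y RNAs bind the Ro60 protein and have been tied to RNA quality control and the start of DNA replication. RNY1 (chromosome 7, 148684228 to 148684340, minus strand, hg19) had 9615 counts in replicate 1 and 0, 1 and 0 in replicates 2 to 4. In CPM this was 132 in replicate 1 and 0.0506 in replicate 3, and 3 counts would be 0.176, 0.152 and 0.157 CPM in replicates 2 to 4. Against that limit of 3 counts per library, replicate 1 was at least 748 times replicate 2 and at least 837 times replicate 4. Against the single count of replicate 3 the ratio was 2598 with an interval of 466 to 102616. The other annotated Y RNAs were much scarcer in replicate 1, at 333 counts for RNY4, 55 for RNY3 and 30 for RNY5, and together had 1, 3 and 0 counts in replicates 2 to 4. Per length, RNY1 stood at 1084 TPM in replicate 1 and RNY4, RNY3 and RNY5 at 44.2, 6.87 and 4.55 TPM.

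Vault RNAs are small components of the vault, a large barrel-shaped particle of the cytoplasm whose wall is built of the major vault protein. All 3 were near the lower limit of detection. VTRNA1-3 (chromosome 5, 140105744 to 140105831, plus strand, hg19) had 74 counts in replicate 1 and 0 in each other library, a level of 1.013 CPM that was at least 5.76, 6.66 and 6.44 times replicates 2, 3 and 4. VTRNA1-1 (chromosome 5, 140090861 to 140090958, plus strand, hg19) had 19, 1, 2 and 0 counts. Its ratio of replicate 1 to replicate 2 was 4.43 (95% interval 0.705 to 184) and to replicate 3 was 2.57 (0.619 to 22.7), so no difference between those libraries was detectable at this depth. VTRNA1-2 (chromosome 5, 140098511 to 140098598, plus strand, hg19) had 4 counts in replicate 1 and 0 elsewhere, too few for a fold. The word abundant therefore did not describe the vault RNAs in these libraries.

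The shortest RNAs had almost no counts outside replicate 1. The 4 RNAs shorter than 120 bases (88 to 113 bases, the vault RNAs and RNY1) had 4 counts in all over replicates 2 to 4, and the 6 longer ones (268 to 451 bases) had 86379, most of them on the 7SL pair and 50, 9 and 2 on TERC. In replicate 1 the short ones ranged from 0.579 to 1084 TPM and the long ones from 902 to 220936 TPM, so the ranges overlapped, with RNY1 above TERC.

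**Figure D3:**
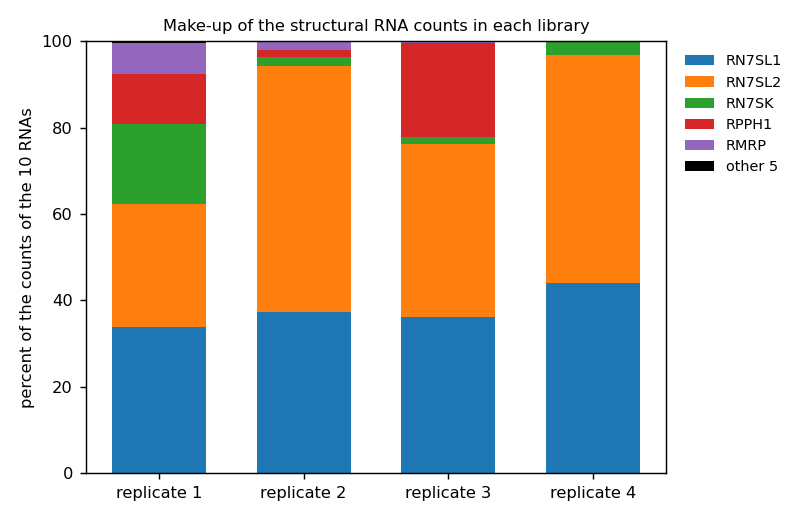
Share of the summed counts of the 10 RNAs taken by each RNA in each library, in percent. RN7SL1 and RN7SL2 take 33.8% and 28.5% in replicate 1 and larger shares in the others, RN7SK takes 18.6% in replicate 1 and 1.67% to 2.84% in the others, and RPPH1 takes 21.7% in replicate 3.

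The order of the RNAs by level per length began with the 7SL pair in every library. In replicate 1 it ran RN7SL1 at 220936 TPM, RN7SL2 at 186536, RN7SK at 109777, RPPH1 at 65502 and RMRP at 53879.6, followed by RNY1 at 1084 and TERC at 902. In replicate 2, RN7SL2 at 9539.9 TPM and RN7SL1 at 6219 led RMRP at 337 and RN7SK at 317, and the last pair did not differ beyond counting error (RMRP to RN7SK 1.06, interval 0.958 to 1.18). In replicate 3, RPPH1 came next after the 7SL pair at 2619.5 TPM, ahead of RN7SK at 207 and RMRP at 57.7. In replicate 4, RN7SK came next at 69.9 TPM, and RMRP at 3.26 and RPPH1 at 2.56 were not told apart by their 7 counts each. The places of RN7SK, RPPH1 and RMRP thus changed from library to library, while the 7SL pair stayed above them and TERC below them.

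All 10 RNAs were highest in replicate 1, although VTRNA1-1 and VTRNA1-2 had too few counts to establish it. The 3 vault RNAs had a mean below 1 CPM. Of the 14440 genes that reached this mean, 30.3% were highest in replicate 1, and so were all 7 of the RNAs among them. Among those genes 1.58% had a level in replicate 1 at least 10 times the next highest, and all 7 of the RNAs that passed the limit did so. RNY1 passed it only through replicate 1, as its mean over replicates 2 to 4 was 0.0169 CPM. For RNY1 both outcomes were therefore fixed by the limit. At the other end, replicate 4 held the lowest level of 6 of the 7 RNAs that passed, against 12.9% of all genes. The exception was RNY1, which was at 0 counts in replicates 2 and 4. Among the 6, TERC had 2 counts in replicate 4 and 9 in replicate 3, which could not be told apart. Since the set was chosen with these values known, nothing is read from any of these counts.

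The size of the gap was measured as the difference in log2(CPM + 1) between replicate 1 and the mean of the other replicates, a scale that understates the gap of RNAs near 0. Over all genes its median was −0.26, and its 5% and 95% points were −2.74 and 1.56. The difference was 10.93 for RMRP, 10.53 for RN7SK, 9.70 for RPPH1, 7.89 for TERC, 7.27 for RN7SL1, 7.03 for RNY1 and 6.68 for RN7SL2. RMRP and RN7SK ranked 1 and 2 among all 14440 genes, RPPH1 ranked 4 and TERC 13. Gaps of this size were not particular to these RNAs. The small nucleolar RNAs SNORD3A and SNORA73B ranked 3 and 5, and the histone gene HIST1H1B ranked 7. The 7SL RNAs, which were the most abundant in every library, had smaller gaps than RMRP, RN7SK and RPPH1, and higher levels than these in every library. The median of all genes was 0.04 with CPM over protein-coding genes, 0.07 with TMM factors, 0.00 with DESeq2 size factors and −1.23 on the TPM scale, and each of the 7 RNAs stayed above it under each.

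**Figure D4:**
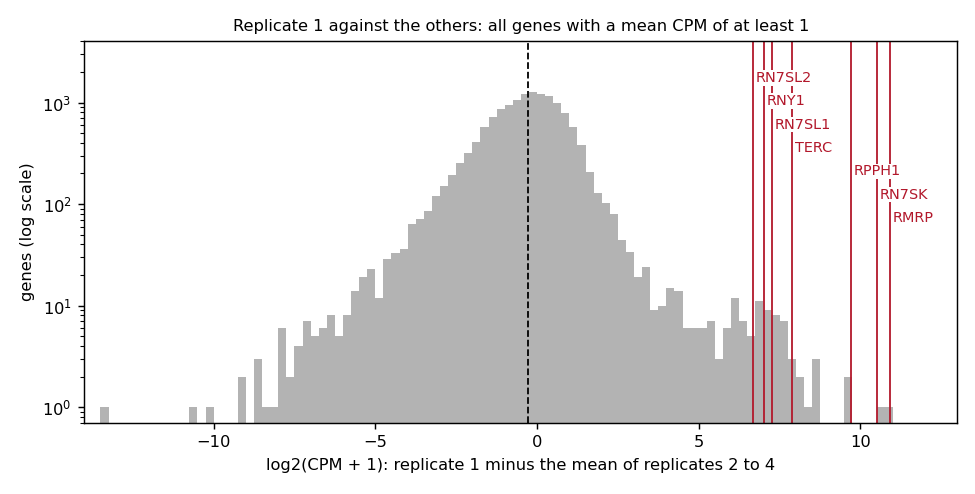
Distribution over 14440 genes of the log2(CPM + 1) difference between replicate 1 and the mean of the other replicates, with a log axis for the number of genes; lines mark 7 of the 10 RNAs and the dashed line the median of all genes at −0.26. The marked RNAs lie between 6.68 and 10.93, and 95% of all genes lie below 1.56.

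The messenger RNAs of the proteins that form particles with these RNAs did not share the gap. All 61 genes on 7 lists of such proteins and of RNA polymerase III had a mean of at least 1 CPM. Of these, 11 were highest in replicate 1 (30.3% of all genes were) and 34 were lowest there (48.1% of all genes were). In replicate 1, 0 of them reached 10 times the next library, against 1.58% of all genes. Their median difference was −0.41, which is 0.14 below that of all genes. These lists were drawn up with earlier results of the data known.

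For the 7SK particle, LARP7, which protects the 3′ end of 7SK, had the highest difference of the list at 1.16 and HEXIM1, the inhibitor of P-TEFb, the lowest at −0.81. Of the signal recognition particle proteins, SRP54, which binds the signal peptide, was highest at 1.04 and SRP68 lowest at −1.62. None of the 10 RNase P and RNase MRP proteins was highest in replicate 1, where 30.3% of all genes were highest. They ranged from 0.24 for RPP30 to −3.03 for RPP21. Their summed level was 187 CPM in replicate 1 and 260.2, 357 and 192 in replicates 2 to 4, while the RNAs of the same enzymes spanned more than 4 powers of 10.

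The telomerase list lay lowest, with 5 of 6 genes lowest in replicate 1 (48.1% of all genes were) and a median difference of −1.40. TERT, the catalytic protein of telomerase, had 0.575 CPM in replicate 1 and 7.62, 4.76 and 2.10 in replicates 2 to 4. The library with the most TERC thus had the least TERT. Over replicates 2 to 4 both values fell in the same order. TERC had only 9 and 2 counts in replicates 3 and 4, which could not be told apart, so a shared order was not established. The highest of the list was NOP10, a protein of H/ACA particles, at −0.12. MVP, the major vault protein, had 193 CPM, 176 CPM, 170.3 CPM and 246 CPM in replicates 1 to 4, close to even where the vault RNAs had 0 to 74 counts. Of the other vault proteins PARP4 differed by 0.86 and TEP1 by −0.41. TROVE2, which encodes Ro60, was highest of the Y RNA list at 1.35, and SSB, which encodes the La protein that binds the 3′ ends of RNA polymerase III transcripts, stood at −0.09. Among 27 genes of RNA polymerase III and its factors, 18 were lowest in replicate 1, and the highest difference was 1.14 for BDP1, a subunit of the initiation factor TFIIIB.

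**Figure D5:**
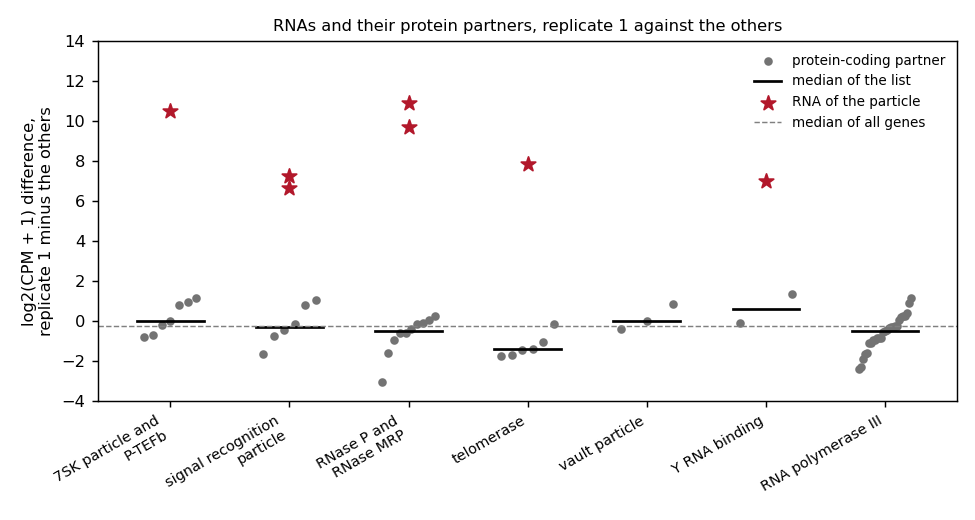
Difference in log2(CPM + 1) between replicate 1 and the mean of the other replicates for protein partners (points, with the list median as a bar) and for the RNA of each particle with a mean of at least 1 CPM (stars). The RNAs lie at 6.68 to 10.93 and the 61 partner genes at −3.03 to 1.35.

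Copies of these RNAs in the genome had, as a sum, the same order of libraries as the RNAs. The 282 rows of related copies and pseudogenes summed to 984 CPM in replicate 1 and 21.3, 12.4 and 8.02 in replicates 2 to 4. RN7SL4P, a 7SL pseudogene, had 48951, 169, 142 and 38 counts, and RN7SKP203, a 7SK pseudogene, had 17705, 1, 1 and 17. The 7SK copies by themselves were about level in replicates 3 and 4, at 36 and 37 counts, against 708 and 186 for RN7SK. Of the 37 counts in replicate 4, 17 were on RN7SKP203. RN7SKP255 had 1563 counts, RN7SKP80 1103 and RN7SKP71 571 in replicate 1, with 0 to 24 in the others. Of all counts on RN7SK and its copies, the copies held 0.737% in replicate 1 and 8.14%, 4.84% and 16.6% in replicates 2 to 4 (95% interval 12.0% to 22.1%). For the 7SL family the copies held 0.522%, 0.778%, 0.613% and 1.67%. Of the 50-base windows of each GENCODE sequence, 84.4% of RN7SL1, 86.5% of RN7SL2, 77.1% of RN7SK and 25% of RNY1 occurred also in a GENCODE transcript at another place, and 0% of the others did. Levels of the 7SL and 7SK RNAs are therefore uncertain by what the counting gave to their copies, and those of RPPH1, RMRP, TERC and the vault RNAs share no such window.

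Genes within 1000 bases of these RNAs varied in pattern. Only RN7SK, RN7SL1, RPPH1, RMRP and RNY1 had such genes. None overlapped a member, and the nearest to each of these RNAs lay on the other strand. PARP2, 202 bases from RPPH1, had 29.8 CPM in replicate 1 and 50.01, 45.1 and 51.6 CPM in the others, and CCDC107, 271 bases from RMRP, had 1.52 CPM against 6.98, 6.43 and 6.39 CPM. Both were lowest where RPPH1 and RMRP were highest, as 48.1% of all genes were. GSTA4, 239 bases from RN7SK, went the other way at 11.2 CPM in replicate 1 against 2.29, 1.42 and 1.83 CPM, a far smaller gap than that of RN7SK. RPS29, a ribosomal protein gene 163 bases from RN7SL1, had 384 CPM in replicate 1, inside the range of 147 to 404 CPM of the others. GHET1, 278 bases from RNY1, was highest in replicate 1 at 1.45 CPM against 0.938, 0.355 and 0.943 CPM.

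The genes whose profile over the 4 libraries came closest to each RNA were found by the root mean square difference of centred log2(CPM + 1) values. RN7SL4P was nearest to RN7SL1 (0.405) and RN7SL2 (0.350), which were themselves 0.307 apart. Next came HIST1H2BF (0.507) and HIST1H4E (0.524) for RN7SL1, and HIST1H3D (0.463) and HIST1H1E (0.471) for RN7SL2, all of them histone genes. SNORD3A, the U3 small nucleolar RNA, was nearest to RN7SK (0.602) and RMRP (1.35), with 1413, 1.99, 0.456 and 0.105 CPM. It was followed by HIST1H1B (0.945) and SNORA73B (0.972) for RN7SK and by SCARNA2 (1.58) and HIST1H1B (1.73) for RMRP. TERC lay closest to DSG4 (0.205), HIST1H1D (0.352) and SNORA73A (0.356), and RNY1 to RNU5A-1 (0.0675), HIST2H3C (0.0677) and HIST2H4B (0.0893). RPPH1 had no close neighbour, with HIST1H1E the nearest at 2.45, before HIST1H1B (2.57) and HIST1H4E (2.76). These likenesses rest on 4 libraries and chiefly on the gap of replicate 1, and for VTRNA1-3, whose values were near 0, the nearest genes MIER1 (0.0368), FAM185BP (0.0390) and DENND6A (0.0395) carry no information on its pattern.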

How the data were processed

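RNA-sequencing of 4 replicate libraries of untreated HaCaT cells was analysed from the tables the authors deposited, 1 per library with read counts per annotated row. Counts were deposited beside RPKM for replicates 1 and 2 and beside TPM for replicates 3 and 4. The submitters' processing notes name HISAT2, TopHat2, HISAT and Bowtie2 and the build hg19. Which replicate each tool served, the counter and its settings are not given in the sources used here. Recomputed RPKM and TPM matched the deposited values within a relative tolerance of 0.001 for every value above 0. Main values are CPM over all rows, and TPM for comparisons between RNAs. No difference was tested, since there is 1 condition and the RNAs and lists were chosen with earlier results of these data known. Differences use log2(CPM + 1) and a minimum mean of 1 CPM, and a count of 0 was bounded by 3 counts. Dixon's criterion served only to list values that lie apart. Ratio and share intervals are 95% Clopper-Pearson. Named genes were all 10 RNAs, the highest, lowest and defining partner of each list, the 5 copies with the most counts, and the 3 nearest profiles of each RNA with a mean of at least 10 counts. One list gene and some sequences that this rule covers are not reported here. The neighbouring genes and the other Y RNAs were named after their values were seen. TMM factors (edgeR 4.0.16) and size factors (DESeq2 1.42.0) served as other scalings. Python 3.11.15, pandas 2.3.3, SciPy 1.17.1 and Biopython 1.88 were used, and the calculations were tested on simulated data.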

Additional observations from a re-analysis of the deposited data

Results flagged for a closer look

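In 25 sets of 4 values, the highest or lowest value lay apart from the rest by Dixon's 95% criterion for 4 values in 14. Chance alone lists about 1 in 20 of independent sets, but these sets share libraries and reads and the RNAs were chosen with their values known, so the count is a description and no test. For VTRNA1-2 and VTRNA1-3, at 0 counts in the other libraries, any count in replicate 1 would meet the criterion. In 11 of the 14 the value apart was that of replicate 1, in CPM: the 10 RNAs summed (210087), RN7SK (39148), RN7SL1 (70957), RN7SL2 (59909), RPPH1 (23992), RMRP (15510.2), TERC (437), RNY1 (132), VTRNA1-3 (1.013), VTRNA1-2 (0.0547, from 4 counts) and the related copies summed (984). VTRNA1-1 alone of the 10 was not apart. The others were ratios per length within a library: RPPH1 to RMRP at 45.4 and RPPH1 to RN7SK at 12.6 in replicate 3, and TERC to RN7SK at 0.0466 in replicate 2. The first of these rests on 9181 and 159 counts and the last on 50 and 790.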

How the results depend on the processing

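The summed level of the 10 RNAs had a mean of 53693 CPM, and 167856 on the TPM scale, which weights short RNAs more. Leaving out 1 replicate gave 1562 to 71476 CPM, and the low value was that without replicate 1, which decides the mean. With CPM over protein-coding genes it was 70253, with TMM factors 64855, with DESeq2 size factors 61903 and with the related copies added 53949.6. The number of RNAs highest in replicate 1 was 10 under each scaling and pseudocount and without replicate 2, 3 or 4, and 8 of those with a mean of at least 10 counts. VTRNA1-3 and RNY1 reached that mean only through replicate 1. The 10 include VTRNA1-1 and VTRNA1-2, whose counts are too few to establish it. Of the 6 RNAs with more than 3 counts in at least 3 libraries, 13 to 15 of 15 pairs kept their order per length when 1 replicate was left out. It was 13 without replicate 1, which sets the mean, and 15 without replicate 2, 3 or 4. In replicate 2 alone 12 pairs had the same order, and in replicates 3 and 4 alone 13 each. Using GENCODE transcript lengths, chosen after seeing the data, all 15 pairs kept their order. Of the values recomputed, 257 counted as unmoved and 28 as moved, the latter mainly on the TPM scale or with a pseudocount of 0.1. A level or difference counted as unmoved if it changed by no more than the SD between replicates, and counts were judged by a fixed factor. For the 10 RNAs summed that SD was 104266 CPM, above the mean, so 1562 CPM without replicate 1 counted as unmoved. The 257 are thus no measure of how stable the levels are. No value of the 10 RNAs changed sign. The median difference of the signal recognition particle proteins, −0.02 relative to all genes, was above 0 with CPM over protein-coding genes (0.0034), with TMM factors (0.0054) and without replicate 3 (0.21). No paired analysis was possible because there is 1 group. The vault RNAs and RNY1 had 4 counts in all over replicates 2 to 4, where a library's 3 counts stand at 0.152 to 0.176 CPM. What part depth has in this was not tested.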
